A study of Mus musculus with 2 samples.

Results

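Penk, Tgm2 and Adam8 are 3 of the 21877 genes measured on whole-transcript arrays of mouse CD8 T cells. They were named as genes with a clear signal and a large drop with cholesterol, so their own differences between the arrays are descriptions of that choice, and the choice set no threshold. Each gene is measured by 1 probe set. The cells given cholesterol and the untreated cells were both cultured under Tc1 cytokines, which drive CD8 T cells toward interferon gamma production and killing. There was 1 array of cells with cholesterol and 1 array of untreated cells, so the values carry neither a replicate error nor a p-value, and their precision is limited by the number of arrays. The sources used here do not give the mouse strain, age or tissue of origin, nor the dose, duration and vehicle of cholesterol. The study asked which genes differ in expression between the 2 cultures.

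Penk encodes proenkephalin, which is cut into the opioid peptides Met-enkephalin and Leu-enkephalin. These peptides act on delta and mu opioid receptors, and lymphocytes as well as neurons can make the precursor. Tgm2 encodes transglutaminase 2, a calcium-dependent enzyme that links glutamine to lysine side chains of proteins, binds GTP and is a known target of retinoic acid. Adam8 encodes a membrane-bound metalloprotease with a disintegrin domain, found mainly on leukocytes, that can shed adhesion molecules from the cell surface.

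The values are signals on a linear scale as the authors deposited them. The median gene-level signal was 46.6 with cholesterol and 48.1 in untreated cells. Counts were taken over genes whose signal on the brighter array was at least 47.4, the median of all gene-level values, which left 11327 genes past this brightness filter. Across them the median log2 difference, cholesterol minus untreated, was 0.05 and its central 95% ran from -0.60 to 0.63. The level of background was read from 5222 negative control probe sets, whose 95th percentile was 121.8 with cholesterol and 130.3 in untreated cells. A signal at or below that level is called within the background range. Genes above it on both arrays numbered 7112. The CD8 label was checked against 8 T cell and CD8 genes (Cd8a, Cd8b1, Cd3d, Cd3e, Cd3g, Cd247, Lck and Gzmb), and all 8 lay above the negative controls on both arrays.

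Penk had a signal of 143.2 with cholesterol, against 738.2 in untreated cells. The untreated array was the high one, and the level with cholesterol was only 1.18 times the 95th percentile of the negative controls, above 95.8% of them. The log2 difference was -2.37, a signal 5.15-fold lower with cholesterol. Tgm2 had a signal of 135.3 with cholesterol, against 362.3 in untreated cells. It too lay close to the background with cholesterol, at 1.11 times that percentile. Its log2 difference was -1.42, or 2.68-fold lower. Adam8 had a signal of 563.3 with cholesterol, against 987.7 in untreated cells. Adam8 was well above the negative controls on both arrays, at 4.62 times their 95th percentile with cholesterol and 7.58 times in untreated cells. Its log2 difference was -0.81, or 1.75-fold lower. In bulk RNA, fewer cells of a type and less RNA per cell cannot be told apart.

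**Figure D1:**
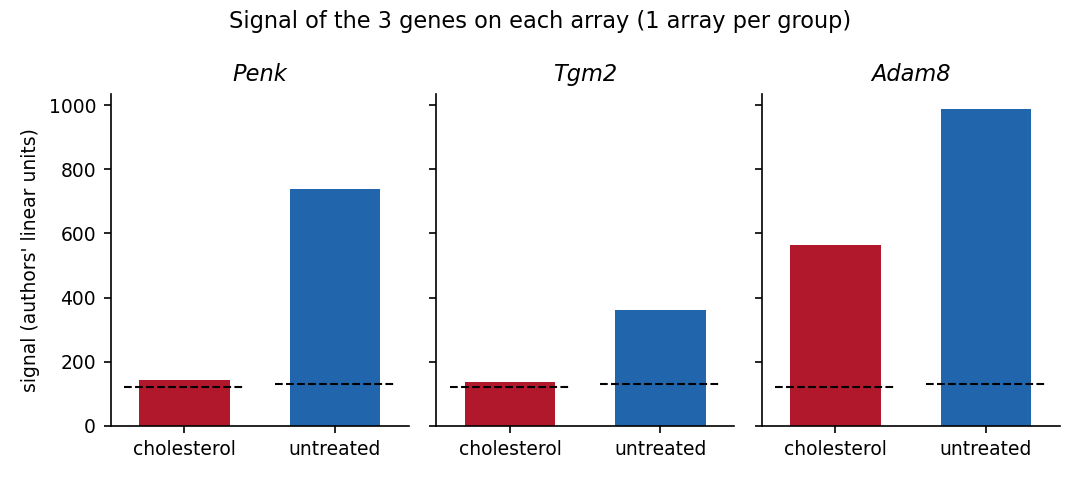
Signal of Penk, Tgm2 and Adam8 in the authors' linear units on the cholesterol array (red) and the untreated array (blue), 1 array each, with dashed lines at the upper limit of the background range. With cholesterol, Penk (143.2) and Tgm2 (135.3) sit just above the dashed line at 121.8, while Adam8 (563.3) stays well above it.

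The 3 drops were of unequal size. Penk and Tgm2 were past 2-fold lower, as were 0.539% of the 11327 genes, and Adam8 was past 1.5-fold lower, as were 2.72% of them. At least 2-fold higher were 0.283%. These shares are given as background only, since the genes were chosen on this contrast. In the order of all 11327 differences, counted from the lowest, Penk was number 2, Tgm2 number 10 and Adam8 number 121. Among the 7112 genes above the negative controls on both arrays, Penk was number 1, Tgm2 number 3 and Adam8 number 27. Of these 7112 genes, 12 (0.169%) were at least 2-fold lower and 6 (0.0844%) at least 2-fold higher. At 1.5-fold, 65 (0.914%) were lower and 115 (1.62%) higher.

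Beside Penk and Tgm2, the 12 genes at least 2-fold lower held 3 secreted cytokines and chemokines. Ccl3, a chemokine that activated T cells secrete, had a signal of 157.4 with cholesterol and 503.1 in untreated cells. Lif, leukemia inhibitory factor, had 533.6 with cholesterol and 1395 in untreated cells. Lta, lymphotoxin alpha, had 507.0 with cholesterol and 1145 in untreated cells. The sterol synthesis genes Idi1, Cyp51, Sqle and Hsd17b7 made up a further 4. Hsd17b7 had 145.9 with cholesterol and 291.8 in untreated cells. Idi1 differed by -1.08, Cyp51 by -1.04 and Sqle by -1.02. The others were Cd74, the MHC class II chaperone (-1.20), Lad1, a component of basement membrane anchoring filaments (-1.16), and Nr4a3, a nuclear receptor induced by T cell receptor signals (-1.02). Penk stood apart from the next of these genes, Ccl3, by more than the distance between Ccl3 at -1.68 and Tgm2.

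**Figure D2:**
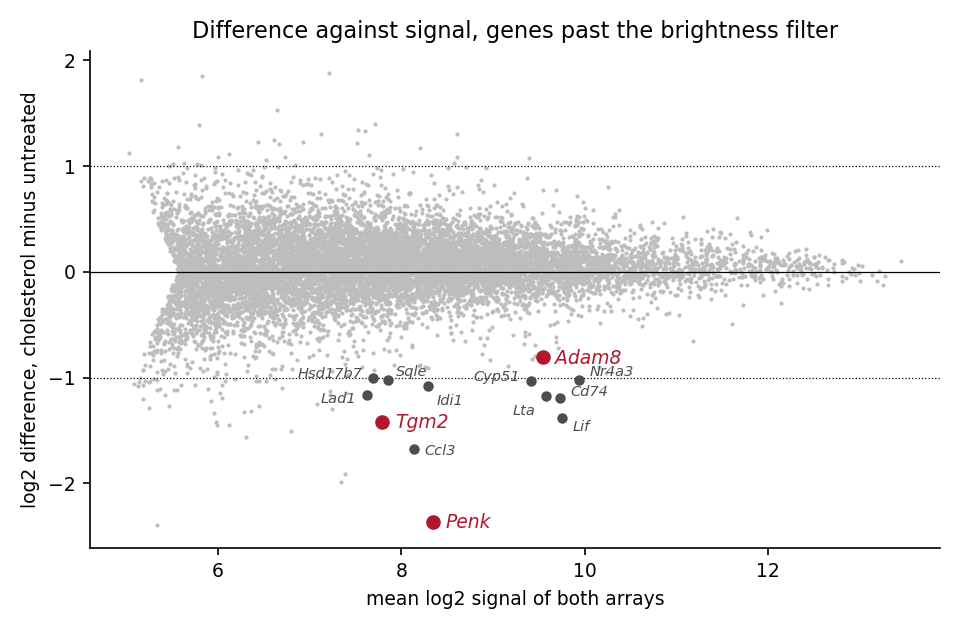
Log2 difference, cholesterol minus untreated, against the mean log2 signal of both arrays for 11327 genes past the brightness filter (grey), with Penk, Tgm2 and Adam8 in red and the other 10 genes at least 2-fold lower and above the negative controls on both arrays in dark grey. Dotted lines mark 2-fold. Penk (-2.37) lies below every other gene of its signal range, and Adam8 (-0.81) lies at a signal where the cloud is narrow.

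The spread of differences varied with signal, so each gene was ranked among the 500 genes nearest to it in mean log2 signal. Counted from the lowest difference, Penk was number 1 of itself and these 500. Its 500 genes of like signal ran from -1.08 to 0.91, with a median of 0.08 and a central 95% of -0.37 to 0.57. The lowest of them was Idi1, an isomerase of the mevalonate pathway, with signals of 215.5 with cholesterol and 456.4 in untreated cells. Next came Furin, a proprotein convertase (229.2 with cholesterol, 430.2 untreated), and Gem, a small GTPase induced in activated T cells (223.6 with cholesterol, 416.6 untreated). Of the 500 genes, 4 (0.8%) were at least 1.5-fold lower, and the absolute difference of Penk was 15.1 times their median absolute difference of 0.16.

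Tgm2 was also number 1 among its genes of like signal. Its genes of like signal ran from -1.02 to 1.40, with a central 95% of -0.48 to 0.67. The next in order was Sqle, squalene epoxidase, with 162.1 with cholesterol and 329.6 in untreated cells. After it came Nek6, a mitotic kinase (-0.93). Of the 500 genes, 6 (1.2%) were at least 1.5-fold lower, and the absolute difference of Tgm2 was 8.0 times their median absolute difference of 0.18.

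Adam8 was number 5 among its genes of like signal. Below it were Cd74, Lta, Cyp51, a sterol demethylase, and F2rl2, a member of the protease-activated receptor family (-0.82). Just above it were Serpinb9, an inhibitor of granzyme B (-0.79), the desaturase gene Fads2 (-0.72) and Tnf, tumor necrosis factor (-0.69). The central 95% of its genes of like signal ran from -0.43 to 0.45, narrower than around Penk and Tgm2. Of the 500 genes, 9 (1.8%) were at least 1.5-fold lower, and the absolute difference of Adam8 was 6.31 times their median absolute difference of 0.13. The highest of the genes near Adam8 was Tcf7, a transcription factor of naive and memory T cells, with 972.2 with cholesterol and 462.1 in untreated cells.

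**Figure D3:**
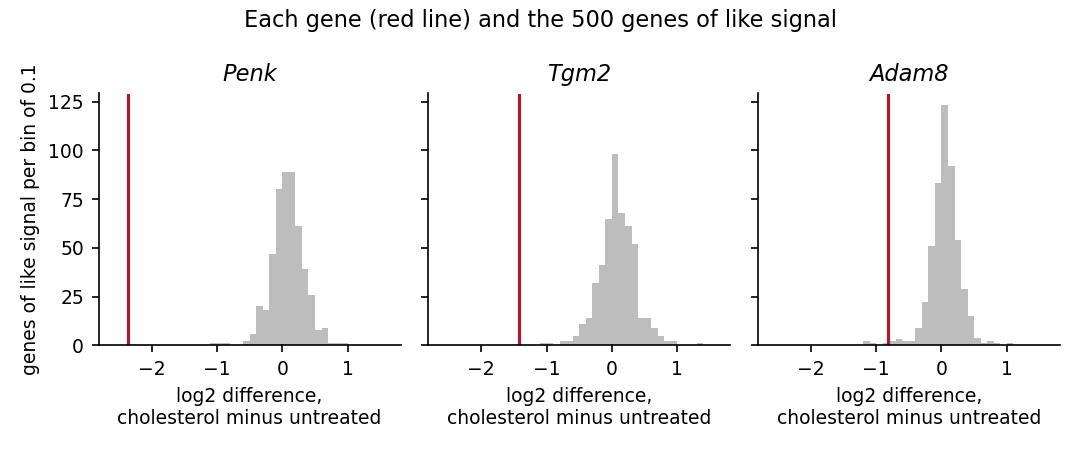
Number of genes of like signal in each bin of 0.1 of the log2 difference, cholesterol minus untreated, for the 500 genes nearest in mean signal to Penk, Tgm2 and Adam8 (grey), with the gene itself as a red line. The red line lies left of all 500 genes for Penk and Tgm2, and 4 genes lie left of it for Adam8.

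Likeness of pattern was also measured as the Euclidean distance in the plane of mean log2 signal and log2 difference, over the genes past the brightness filter and the 2 arrays. Mean signals of different probe sets enter this distance, which serves only to pick genes. The genes nearest to Penk were Ccl3 at a distance of 0.72, Il24, a cytokine of the interleukin 10 family, at 1.06, and Ifng, interferon gamma, at 1.07. Il24 had a signal of 86.2 with cholesterol and 324.6 in untreated cells, which is at least 2.66-fold lower because the level with cholesterol lies within the background range. Ifng had 81.5 with cholesterol and 323.2 in untreated cells, at least 2.65-fold lower for the same reason. The distances of Il24 and Ifng use these deposited signals, so they and their order are approximate. Nearest to Tgm2 were Lad1 at 0.31, Sqle at 0.40 and Ccl3 at 0.43. Nearest to Adam8 were Serpinb9 at 0.08, F2rl2 at 0.12 and Tnf at 0.14.

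RefSeq promoter windows of GRCm38.p6, running from 250 bases before to 50 after the gene start, were searched on both strands for an AP-1 element spelled TGACTCA or, as its variant, TGAGTCA, and for the cAMP response element TGACGTCA. Also searched were the variant TGCGTCA known from the enkephalin promoter, the NFAT core GGAAA, the GC box GGGCGG and the short box CCAAT. The window was matched by symbol for 1 of the 3 genes, Adam8. It is printed with those of the gene nearest in pattern to each of Penk (Ccl3), Tgm2 (Lad1) and Adam8 (Serpinb9), so that the letters searched can be seen beside the genes that were lower alike. The windows are chr7:139992513-139992812 (minus strand) for Adam8, chr11:83649329-83649628 (minus strand) for Ccl3, chr1:135818348-135818647 (plus strand) for Lad1 and chr13:33004291-33004590 (plus strand) for Serpinb9. Capitals mark every match.
Adam8: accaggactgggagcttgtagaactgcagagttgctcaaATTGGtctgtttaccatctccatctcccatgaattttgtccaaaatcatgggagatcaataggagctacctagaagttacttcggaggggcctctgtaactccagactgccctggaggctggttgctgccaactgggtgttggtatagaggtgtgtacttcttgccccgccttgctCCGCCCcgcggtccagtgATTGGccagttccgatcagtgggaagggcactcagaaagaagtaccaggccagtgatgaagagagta
Ccl3: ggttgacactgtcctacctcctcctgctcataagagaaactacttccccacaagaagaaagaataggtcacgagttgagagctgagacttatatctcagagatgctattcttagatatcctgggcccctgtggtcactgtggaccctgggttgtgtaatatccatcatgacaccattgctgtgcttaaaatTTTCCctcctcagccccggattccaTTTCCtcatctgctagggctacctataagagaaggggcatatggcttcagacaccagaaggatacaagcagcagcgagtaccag
Lad1: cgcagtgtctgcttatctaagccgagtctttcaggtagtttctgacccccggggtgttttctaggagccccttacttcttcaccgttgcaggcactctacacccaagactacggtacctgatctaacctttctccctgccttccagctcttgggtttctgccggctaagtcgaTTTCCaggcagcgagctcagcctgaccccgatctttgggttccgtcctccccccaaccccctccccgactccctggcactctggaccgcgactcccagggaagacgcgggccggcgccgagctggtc
Serpinb9: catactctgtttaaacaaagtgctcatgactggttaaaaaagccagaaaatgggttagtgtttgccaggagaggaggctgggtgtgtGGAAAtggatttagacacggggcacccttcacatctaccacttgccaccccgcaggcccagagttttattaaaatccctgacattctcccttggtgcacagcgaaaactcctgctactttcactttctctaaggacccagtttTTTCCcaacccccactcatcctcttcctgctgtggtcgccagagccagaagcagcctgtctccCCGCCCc

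The Adam8 window held 3 matches, a GC box and a pair of CCAAT boxes, all on the opposite strand. A GC box lay in 35.7% and a CCAAT box in 37.4% of 32851 windows, so both are common. The capitals in Ccl3 (2 matches) and Lad1 (1 match) are NFAT cores, and Serpinb9 held 2 NFAT cores and a GC box. The NFAT core lay in 61.3% of all windows. The rarer letters were in none of the 4 windows printed. An AP-1 element lay in 5.20% of all windows, the cAMP response element in 1.79% and the enkephalin element in 2.12%. These matches describe letters and say nothing of whether a factor binds.

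Penk was the only opioid precursor gene above the negative controls. Pdyn, the precursor of dynorphin, had 55.7 with cholesterol and 50.7 in untreated cells, within their range on both arrays. Pomc, the precursor of beta-endorphin, and Pnoc, that of nociceptin, lay below the brightness filter. Among the receptors, Oprd1 (delta), Oprm1 (mu), Oprk1 (kappa) and Oprl1 (nociceptin) also lay below that filter and within the negative controls on both arrays. Oprd1 had 39.9 with cholesterol and 44.3 in untreated cells, and Oprm1 had 13.8 with cholesterol and 21.0 in untreated cells. Ogfr, a receptor for Met-enkephalin of a different family, had a clear signal of 852.0 with cholesterol and 913.6 in untreated cells, a log2 difference of -0.10.

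Of 8 genes for the processing of enkephalin and other peptides, Furin alone lay above the negative controls, and it was 1.88-fold lower with cholesterol. Ctsl, cathepsin L, differed by 0.31 within the background range. Pcsk1 and Pcsk2, the convertases of neuroendocrine cells, lay below the brightness filter. Of 6 peptidases that can degrade enkephalins, Dpp3 and Lnpep lay above the negative controls on both arrays. Dpp3, dipeptidyl peptidase 3, differed by 0.04, and by -0.02 after quantile normalization or loess. Lnpep, an aminopeptidase, differed by 0.10, and Npepps, another aminopeptidase, by -0.34 within the background range. Of the 3 peptidases past the brightness filter, 0 reached 1.5-fold either way, near the background of 2.72% lower and 3.22% higher.

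Tgm2 was likewise the only transglutaminase above the negative controls. The other 9 family members measured, including the coagulation factor gene F13a1 and the erythrocyte protein gene Epb42, lay within their range on both arrays. Tgm1, the keratinocyte enzyme, was the only other member past the brightness filter, with 65.3 with cholesterol and 74.9 in untreated cells. Of 9 genes for partners of transglutaminase 2 at the cell surface, 4 lay above the negative controls on both arrays. At least 1.5-fold either way were 0 of these 4, near the background of 0.914% lower and 1.62% higher among genes with such signals. The 4 were Itgb1 (-0.19) and Itgb3 (0.03), both integrin beta chains, Lrp5, a Wnt co-receptor (-0.04), and Mfge8, which bridges integrins and dying cells (0.08). Itgb3 turned to -0.03 after quantile normalization, and Lrp5 to 0.0024 after each array was centred on its median. Sdc4, a heparan sulfate proteoglycan, and Lrp1, an endocytic receptor, differed by -0.61 and -0.74, with both arrays in the background range.

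Genes of the retinoid pathway, which is known to induce Tgm2, were lower about as often as all genes, and the part of this pathway in the difference of Tgm2 was not tested. Of 14 measured, 6 were past the brightness filter, with 3 lower (background 40.4%) and 3 higher. Their median was -0.00062, or 0.04 after centring, beside 0.05, or 0.09 after centring, for all genes past the filter. Rxra, Dhrs3 and Stra6, 3 of these 6, lay within the background range on both arrays. Rarg, the gamma retinoic acid receptor, was 1.36-fold lower, with 275.6 with cholesterol and 374.9 in untreated cells. Rara, the alpha receptor, differed by 0.14 and Rxrb by 0.14. Stra6, a retinol transporter, had 49.3 with cholesterol and 123.2 in untreated cells, both within the background range.

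Adam8 had the largest difference of the 6 ADAM genes past the brightness filter, all of which lay above the negative controls on both arrays. Adam10, a broad sheddase of T cells, had 728.6 with cholesterol and 679.2 in untreated cells. Adam17, which sheds tumor necrosis factor, had 366.9 with cholesterol and 369.5 in untreated cells, a difference of -0.01 that became 0.03 after centring. Adam9 differed by -0.15, Adam15 by -0.21 and Adam19 by -0.23. Of the 5 genes other than Adam8, 4 were lower, or 3 after centring, against 40.4% of all genes past the filter, or 33.0% after centring. At least 1.5-fold either way were 0 of these 5, near the background of 2.72% lower and 3.22% higher. Among genes for proteins that ADAM8 can cut or that were listed as candidates, Selplg, the P-selectin ligand, differed by 0.09 and the adhesion molecule gene Icam1 by -0.26. Fcer2a, the low-affinity IgE receptor, differed by -0.36 within the background range.

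**Figure D4:**
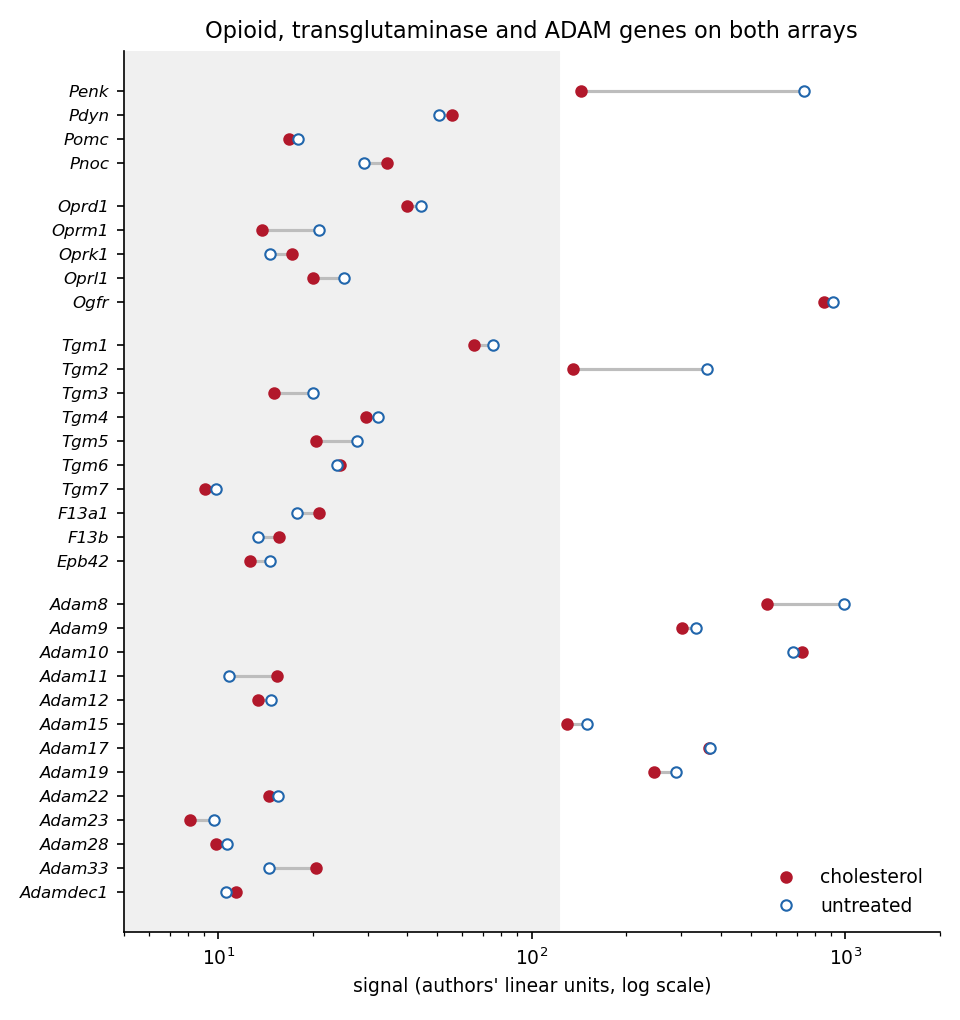
Signal on a log scale with cholesterol (red, filled) and in untreated cells (blue, open) for opioid precursor and receptor genes, transglutaminase genes and ADAM genes, 1 array each. The grey area ends at the 95th percentile of the negative controls with cholesterol, 121.8. Penk and Tgm2 are the only members of their families to the right of it, and Ogfr is the only receptor gene there.

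Genes that T cells switch on after activation were mostly lower with cholesterol. Of 32 such genes measured, 29 were past the brightness filter and 26 of these were lower, against 40.4% of all genes past the filter. At least 1.5-fold lower were 9 of the 29 (background 2.72%), 5 of them at least 2-fold (background 0.539%), and 0 were at least 1.5-fold higher (background 3.22%). Of the 9, Ccl4, Csf2 and Xcl1 lay in the background range on both arrays, and Ccl4 and Csf2 passed the brightness filter only on the untreated array, so these counts are descriptions. The median log2 difference of the 29 was -0.37, beside 0.05 for all genes past the filter. Over the 23 members above the negative controls on both arrays, 20 were lower, with a median of -0.36 beside 0.06 for all genes with such signals. At least 1.5-fold lower were 5 of the 23, against 0.914% of all genes with such signals. Those 5 were Ccl3, Lta, Nr4a3, the early growth response gene Egr3 (-0.71) and Tnf. Earlier results of these data were known when the list was drawn up, and many of its genes had been seen to be lower, so its direction is not independent evidence.

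The differences within that list were uneven. Cd69, an early activation marker, had 1200 with cholesterol and 1546 in untreated cells. Tnfrsf9, the costimulatory receptor 4-1BB, had 2633 with cholesterol and 3712 in untreated cells, a log2 difference of -0.50. Myc differed by -0.11 and Il2ra, the alpha chain of the interleukin 2 receptor, by -0.11. Icos, a costimulatory receptor, differed by 0.14 and the phosphatase gene Dusp2 by 0.18. The transferrin receptor gene Tfrc was at 0.05, and at -0.0048 after quantile normalization. Set beside the 23 list members above the background range on both arrays, Penk had a lower difference than all of them. Tgm2 lay between Ccl3 at -1.68 and Lta at -1.18, and Adam8 between Nr4a3 at -1.02 and Egr3 at -0.71.

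Genes of resting T cells differed the other way. All 15 were past the brightness filter and higher with cholesterol, while 40.4% of all genes past the filter were lower. The median of the 15 was 0.37, beside 0.05 for all genes past the filter. The transcription factor gene Foxo1 (0.07) was at -0.0022 after quantile normalization. At least 1.5-fold higher were 5 (background 3.22%). They were Tcf7 (1.07), Klf2, which controls T cell migration (0.96), S1pr1, the receptor for exit from lymph nodes (0.77), Pik3ip1, an inhibitor of PI3 kinase (1.33), and Id3 (0.68). Pik3ip1 lay within the background range in untreated cells and was at least 2.37-fold higher with cholesterol. Id3 lay within it in untreated cells and just above it with cholesterol, so its fold has no bound above 1. Ccr7, the homing receptor of naive T cells, differed by 0.06. The 12 members above the negative controls on both arrays had a median of 0.29, beside 0.06 for all genes with such signals. At least 1.5-fold higher were 3 of them (background 1.62%). This list too was drawn up with earlier results of these data known, so its direction is not independent evidence.

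Among genes known to act on activation-induced promoters, those of AP-1, CREB and CREM factors were mostly lower, and those of NFAT and calcineurin lay near the background. Of 13 AP-1, CREB and CREM genes past the brightness filter, 10 were lower (background 40.4%), and 2 were at least 1.5-fold lower (background 2.72%). Their median was -0.27, beside 0.05 for all genes past the filter. Among those lower, Fosb and Maf lay in the background range on both arrays, and Maf passed the filter only on the untreated array. Over the 10 members above the negative controls on both arrays, 7 were lower, with a median of -0.16 beside 0.06 for all genes with such signals. At least 1.5-fold lower was 1 of them (background 0.914%). Atf3, a stress-induced factor, was at least 1.97-fold lower, with 121.7 with cholesterol and 240.0 in untreated cells. Batf3 was 1.54-fold lower, Fosl1 differed by -0.56 and Fosl2 by -0.51. Creb1, the founding member of the CREB family, differed by 0.34 and Jund by 0.09, and Fos lay below the brightness filter. Of 8 NFAT and calcineurin genes, all past the filter, 5 were higher and 3 lower, near the background of 40.4% lower. Their median was 0.11, beside 0.05 for all genes past the filter, and 0 were past 1.5-fold (background 2.72% lower and 3.22% higher). Nfatc3 differed by 0.25 and the calcineurin subunit gene Ppp3r1 by 0.18. Nfatc1 had 850.4 with cholesterol and 798.3 in untreated cells.

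**Figure D5:**
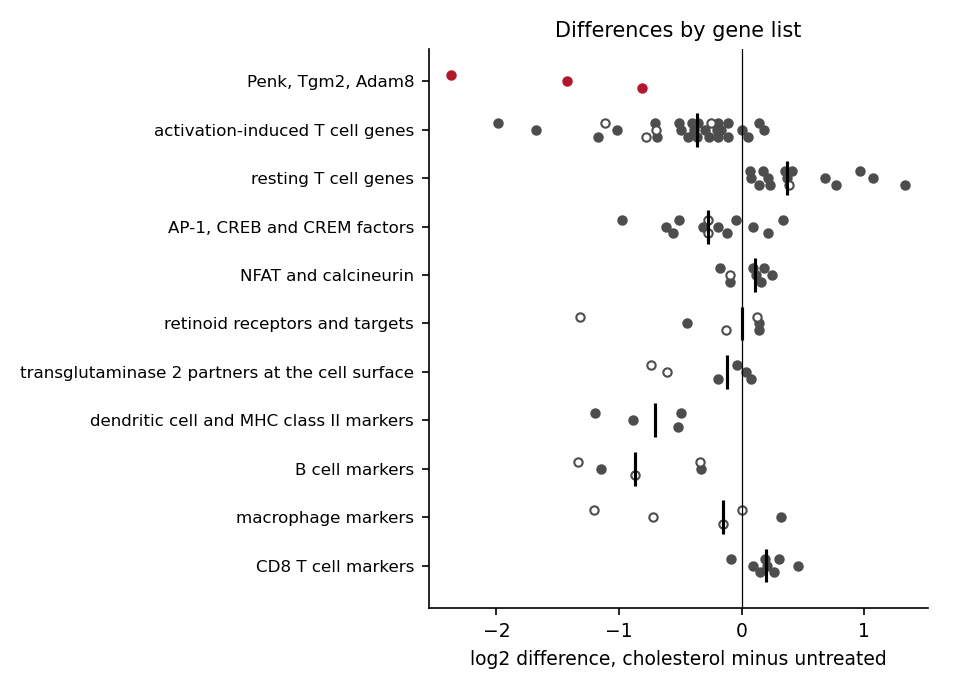
Log2 difference, cholesterol minus untreated, of Penk, Tgm2 and Adam8 (red) and of the genes past the brightness filter in 10 gene lists. Filled points lie above the background range on at least 1 array, open points on neither, and black bars are medians. Activation-induced genes lie mostly left of 0 (median -0.37) and resting genes right of it (median 0.37).

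The authors' annotation gives Penk 8, Tgm2 17 and Adam8 34 process terms. No term was shared by all 3 genes, and 2 were shared by Tgm2 and Adam8, positive regulation of cell adhesion and positive regulation of inflammatory response. The other genes of these terms past the brightness filter had medians of 0.03 over 33 genes and -0.04 over 28 genes. Of the 57 terms in all, 31 had at least 10 other genes past the filter, and their medians ran from -0.55 to 0.13. The lowest was lymphocyte chemotaxis, a term of Adam8, picked out here after its values were seen. Of its other 10 genes, 5 lay in the background range on both arrays, among them the chemokine genes Ccl4, Ccl11 and Ccl9, which passed the brightness filter only on the untreated array. The median of this term therefore rests partly on background. Ccl3 alone of the 10 was above that range on both arrays and at least 1.5-fold lower, as were 0.914% of all genes with such signals. The chemokine gene Ccl22 had 99.7 with cholesterol, within the background range, and 223.8 in untreated cells. Ccl5, a chemokine of memory CD8 T cells, differed by 0.44, with 471.3 with cholesterol and 347.1 in untreated cells.

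Markers of other cell types were read in the same pair of arrays and did not all differ one way. The counts run over all markers measured, beside a background of 40.4% lower among genes past the brightness filter. Macrophages are also known to make transglutaminase 2 and ADAM8. Of 10 macrophage markers, 5 were lower and 5 higher, and their summed signal was 452.5 with cholesterol and 481.8 in untreated cells. Csf1r, Adgre1, Cd14 and 6 more lay within the background range on both arrays, among them Mpeg1 (-1.21) and Lyz2 (-0.72). Cd68 lay above it, was higher with cholesterol (0.32) and was the largest part of the sum, with 181.4 with cholesterol and 144.9 in untreated cells. Of 7 dendritic cell and MHC class II markers 6 were lower, with a summed signal of 1328 with cholesterol and 2455 in untreated cells. Itgax and Flt3 lay within the background range, while Cd74, H2-Aa, H2-Ab1 and H2-Eb1 lay above it on both arrays. Of 7 B cell markers 6 were lower, with a sum of 438.8 with cholesterol and 709.7 in untreated cells. Of the 7, 5 lay within the background range on both arrays, among them Ms4a1 and Pax5. Cd79a was at least 2.06-fold lower. Cd79b, the only B cell marker above that range on both arrays, differed by -0.33. The part of these markers in the differences of Penk, Tgm2 and Adam8 was not tested.

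CD4 T cells, regulatory T cells among them, are also known to express Penk. Of 7 markers of these cells 4 were lower and 3 higher (background 40.4% lower), with a sum of 4474 with cholesterol and 5042 in untreated cells. The largest part of this sum was Tnfrsf18, with 2297 with cholesterol and 2517 in untreated cells. Cd4 had 393.1 with cholesterol and 605.0 in untreated cells, and Foxp3, the defining factor of regulatory T cells, had 38.7 with cholesterol and 61.0 in untreated cells, within the background range on both arrays. Lrrc32, which encodes the TGF-beta docking protein GARP, was 1.85-fold lower, while Ctla4 differed by 0.36 and Ikzf2 by 0.04, or -0.04 after quantile normalization. Of 9 granulocyte and mast cell markers, 5 were lower and 4 higher (background 40.4% lower), with a sum of 493.1 with cholesterol and 492.2 in untreated cells. The neutrophil genes S100a8, S100a9 and Mpo lay within the background range on both arrays, and the mast cell protease gene Cpa3 was at least 1.11-fold lower. Kit, the stem cell factor receptor, differed by 0.57 and was the largest part of the sum, with 283.0 with cholesterol and 190.8 in untreated cells. Equal sums therefore hold genes that differed in opposite directions. The CD8 T cell markers were higher in 7 of 8 cases and lower in 1 (background 40.4% lower). The largest differences were those of Cd3d (0.46) and Cd8b1 (0.31), and the sum was 27298.5 with cholesterol and 25077 in untreated cells. The part of these markers in the differences was not tested either.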

How the data were processed

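Total RNA was extracted with Trizol and labelled with biotin in a sense-target protocol, per the labels' protocols. The authors deposited a signal intensity per probe set and array and, beside it, a ratio with the untreated array as denominator, which equalled the quotient of both signals. The sources used here name no array software, background correction or normalization. Of 22206 gene-level probe sets, 31 with a date-like, joined or missing symbol were left out, and the brightest probe set of each symbol was used. Differences were taken on the log2 scale with Python 3.11.15, numpy 2.4.6 and pandas 2.3.3, and loess with statsmodels 0.14.6. A fold is given as at least a value where 1 array lay within the negative controls, set at their 95th percentile. Genes of like signal were the 500 nearest in mean log2 signal.

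The 3 genes and the 19 gene lists were chosen with earlier results of these data known. Genes were named by rule: the 3 genes, the 3 nearest in pattern to each, the 10 lowest above the negative controls, the 2 largest of each list, and fixed opioid, transglutaminase and ADAM genes. Model-number, RIKEN and small RNA genes were left out of the nearest and lowest genes. Other named genes were chosen after their values were seen, and a few genes are not reported here. All listed genes were matched by symbol. The ranks and fold calls were run on simulated signals with planted drops and independent noise. These signals had no background floor, so they do not test folds near the background, such as those of Penk and Tgm2. Alternatives were 3 normalizations, an offset, the probe set rule, filters and the genes taken as of like signal.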

Additional observations from a re-analysis of the deposited data

How the results depend on the processing

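Penk, Tgm2 and Adam8 were lower with cholesterol under all 6 alternatives run for each, with log2 differences of -2.48 to -2.03 for Penk, -1.51 to -1.15 for Tgm2 and -0.89 to -0.76 for Adam8. An offset of 50 before log2 gave -2.03 for Penk and -1.15 for Tgm2, a shift larger than the median absolute difference of genes of like signal, as adding a constant shrinks differences near the background. Subtracting the median negative control, an alternative chosen after seeing the data, gave -2.48, -1.51 and -0.82. Penk was number 1 of its genes of like signal under all 10 alternatives. Tgm2 was number 1 in 9 of 10 and number 2 by the cholesterol signal alone, also chosen after seeing the data. Adam8 ran from number 2 to number 6, with number 6 among 1000 genes of like signal and number 3 by the cholesterol signal alone. A median counted as moved past 0.1, a count past 1.5 times and a rank past 1.5 times, scaled to the number of genes of like signal where that number changed, and the medians of the activation-induced (-0.43 to -0.29) and resting genes (0.29 to 0.41) did not move under the 8 alternatives of each.

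Counts over all genes depended on the filter. At least 2-fold lower and higher were 61 and 32 genes, but 45 and 45 after centring each array on its median, 109 and 51 with no brightness filter, 25 and 20 above the negative controls on at least 1 array, 12 and 6 above them on both, and 10 and 6 with the offset. At 1.5-fold, 308 were lower and 365 higher, but 856 and 597 with no filter, 106 and 209 on at least 1 array, 65 and 115 on both, and 85 and 100 with the offset. The causes were not tested beyond the number of genes counted. No paired analysis was possible because each group has 1 array, and no replicate could be left out.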
